A study of Mus musculus with 6 samples.

Results

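The immunoglobulin kappa variable (Igkv) genes encode most of the antigen-binding domain of kappa light chains, and they were described here segment by segment in mouse lungs. Members were all gene symbols of the deposited count table that begin with Igkv, 160 of 49568 symbols. All 160 were found in the GENCODE M21 annotation of GRCm38 (mm10), where they lie on chromosome 6 between 67555497 and 70704177, a span of 3.15 Mb. The annotation lists 100 of them as V genes and 60 as V pseudogenes, 75 on the plus and 85 on the minus strand, and the names put them in 20 families. The segment nearest to the first joining segment, Igkj1, lies 18.4 kb from it.

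RNA of whole lung was sequenced from 3 TNF-Tg and 3 WT mice, all female, 4 months old and on a C57BL/6 background, with 1 library per mouse. TNF-Tg mice of the 3647 line carry 1 copy of the human TNF gene and develop inflammatory arthritis and pulmonary vascular disease, and WT mice were their littermates. The transgene is present in every cell of the animal, so a change in the lung cannot be assigned to TNF made in the lung. Whole lung holds blood and any lymphoid tissue left attached, and the labels name no perfusion or sorting.

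A kappa light chain is made in a B cell after 1 V segment is joined to 1 J segment by V-J recombination, and the joined exon is spliced to the constant exon, Igkc. B cells transcribe the rearranged gene, and plasma cells, the antibody-secreting stage, transcribe it at far higher rates. Daughter cells of a B cell keep its V segment, so in a tissue the counts of a segment reflect both how many cells carry it and how much RNA each makes. Fewer cells of a type and less RNA per cell cannot be told apart in these data.

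The segments with most counts in at least 1 lung, Igkv4-55, Igkv1-110, Igkv10-96 and Igkv8-21, are shown first, with Igkv1-117, the closest relative of Igkv1-110, because likeness between segments limits how well reads can be assigned. Each line gives the last 290 bases of the germline coding sequence, 5′ to 3′, from the GENCODE M21 transcripts on GRCm38. Capitals mark bases that differ from, or are absent in, the most similar other segment when the whole coding sequences are aligned, which is Igkv4-68 for Igkv4-55, Igkv1-117 for Igkv1-110, Igkv10-94 for Igkv10-96, Igkv8-30 for Igkv8-21 and Igkv1-110 for Igkv1-117.
Igkv4-55 (chr6:69607275-69607564, minus strand): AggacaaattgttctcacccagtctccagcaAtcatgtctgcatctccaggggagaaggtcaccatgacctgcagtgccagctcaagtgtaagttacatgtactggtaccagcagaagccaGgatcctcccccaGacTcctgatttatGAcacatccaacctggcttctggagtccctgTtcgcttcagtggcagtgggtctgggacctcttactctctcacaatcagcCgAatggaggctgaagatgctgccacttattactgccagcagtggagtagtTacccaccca
Igkv1-110 (chr6:68270978-68271267, plus strand): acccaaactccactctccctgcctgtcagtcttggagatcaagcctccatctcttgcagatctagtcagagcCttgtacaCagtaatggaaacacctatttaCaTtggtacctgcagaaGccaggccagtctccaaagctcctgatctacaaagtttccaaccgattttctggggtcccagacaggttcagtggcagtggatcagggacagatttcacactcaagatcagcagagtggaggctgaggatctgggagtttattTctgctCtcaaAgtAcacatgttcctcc
Igkv1-117 (chr6:68121538-68121827, plus strand): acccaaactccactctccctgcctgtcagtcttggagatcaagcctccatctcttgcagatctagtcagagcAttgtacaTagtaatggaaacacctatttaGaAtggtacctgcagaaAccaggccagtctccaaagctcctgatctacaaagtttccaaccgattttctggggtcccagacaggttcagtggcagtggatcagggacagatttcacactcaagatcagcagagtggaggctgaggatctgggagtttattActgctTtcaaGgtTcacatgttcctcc
Igkv10-96 (chr6:68631963-68632252, minus strand): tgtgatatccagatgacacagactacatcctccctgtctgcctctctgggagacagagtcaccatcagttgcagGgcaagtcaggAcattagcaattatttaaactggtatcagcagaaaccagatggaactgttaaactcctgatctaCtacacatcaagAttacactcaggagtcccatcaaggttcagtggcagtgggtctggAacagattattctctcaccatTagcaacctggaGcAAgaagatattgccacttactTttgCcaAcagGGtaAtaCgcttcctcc
Igkv8-21 (chr6:70314895-70315184, minus strand): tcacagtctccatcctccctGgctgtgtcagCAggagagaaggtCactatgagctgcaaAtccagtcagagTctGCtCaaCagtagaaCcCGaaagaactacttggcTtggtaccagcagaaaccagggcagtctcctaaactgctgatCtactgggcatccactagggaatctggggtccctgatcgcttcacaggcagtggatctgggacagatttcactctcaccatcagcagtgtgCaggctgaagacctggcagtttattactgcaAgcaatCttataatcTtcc

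Igkv1-110 and Igkv1-117 differed at 9 of these 290 bases and shared a run of 142 bases, longer than the 100-base reads. A read from that run fits both segments. Of all 100-base windows of their transcripts, 16.2% for Igkv1-110 and 16.1% for Igkv1-117 occurred in another Igkv gene, as did 16.1% for Igkv4-55, 12.3% for Igkv10-96 and none for Igkv8-21. Over the 100 V genes, the median identity to the most similar segment was 94.3% and the highest was 98.6%. Among the V genes, 44 had at least 1 shared window and 24 had more than 10% of windows shared. The study's methods name uniquely mapped transcripts as the input of the expression analysis, under which a read that fits 2 segments equally would add to neither, but the counting setting itself is not given in the sources used here. Somatic mutation and the joined J segment can also move reads away from the germline sequence. Both can lower the count of a segment and the Igkv sum, and for pairs such as Igkv1-110 and Igkv1-117 the split between segments is uncertain.

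The total counts per lung were between 25396923 and 32529408. WT replicate 1 stood apart by squamous epithelium genes, with a summed level of 100559 normalized counts against 13.2 to 82.6 in the other lungs, and by skeletal muscle genes, with 40318 against 343 to 1092. Fat cell genes summed to 31.6 and 18.6 normalized counts in TNF-Tg replicates 1 and 2, 539 in TNF-Tg replicate 3 and 393 to 896 in WT lungs. TNF-Tg replicate 3 also had the lowest Igkv sum of its group, and whether the 2 are related was not tested. Gm42418, a gene that overlaps ribosomal RNA repeats, held 5.22% of the counts of TNF-Tg replicate 1 and 0.0774% to 0.274% elsewhere. The results below are therefore also given without WT replicate 1 and TNF-Tg replicate 1 where they are the main values.

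Igkv RNA was more abundant in each TNF-Tg lung than in any WT lung. The Igkv counts of TNF-Tg replicates 1, 2 and 3 were 242315, 328861 and 128767, and those of WT replicates 1, 2 and 3 were 3870, 7238 and 23149. These were 0.954%, 1.09% and 0.443% of all counts in TNF-Tg lungs and 0.0123%, 0.0223% and 0.0713% in WT lungs. Scaled to library size, the sum was 8615 ± 3992 CPM (counts scaled to a common library size) in TNF-Tg lungs and 344 ± 296 CPM in WT lungs (SD, n = 3), a ratio of means of 25.0 and a difference of 4.87 in mean log2 CPM. An exact two-sided permutation test gave p = 0.1, the smallest p that 3 lungs against 3 allow. Without TNF-Tg replicate 1 the log2 difference was 4.65, without TNF-Tg replicate 3 it was 5.35, and without WT replicate 1 it was 4.31. It moved most without WT replicate 3, to 5.54. Within groups the sum was uneven, with the highest lung 2.80 times the lowest among TNF-Tg and 5.56 times among WT.

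Of the other antibody parts, the kappa constant and joining segments, the summed Ighv and Iglv genes and Jchain were also higher in each TNF-Tg lung than in any WT lung, while the IgD constant gene Ighd overlapped between the groups (log2 fold change 0.19, SE 0.22, not called). Of all 8 heavy chain constant genes tested, 7 were called higher, beside 24.0% of the 19199 genes tested. Igkc, the kappa constant exon, had 567521, 697330 and 295092 counts in TNF-Tg lungs and 8236, 13063 and 60804 in WT lungs (log2 fold change 4.55, standard error (SE) 0.81, called higher by edgeR, and 5.83 without WT replicate 3). All 5 joining segments, Igkj1 to Igkj5, were called higher, with summed counts of 821, 1110 and 475 in TNF-Tg lungs and 36, 55 and 123 in WT lungs. The Igkv sum per Igkc count was 0.427, 0.472 and 0.436 in TNF-Tg lungs and 0.470, 0.554 and 0.381 in WT lungs, groups that overlapped (exact permutation p = 0.8). Per count of heavy chain variable (Ighv) genes, the Igkv sum was 3.08, 3.00 and 2.49 in TNF-Tg lungs and 2.87, 3.84 and 2.90 in WT lungs, which also overlapped (exact permutation p = 0.6). Against the 3 lambda variable genes (Iglv) the ratio was 10.7, 18.9 and 15.5 in TNF-Tg lungs and 16.8, 23.1 and 26.0 in WT lungs (exact permutation p = 0.2).

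**Figure D1:**
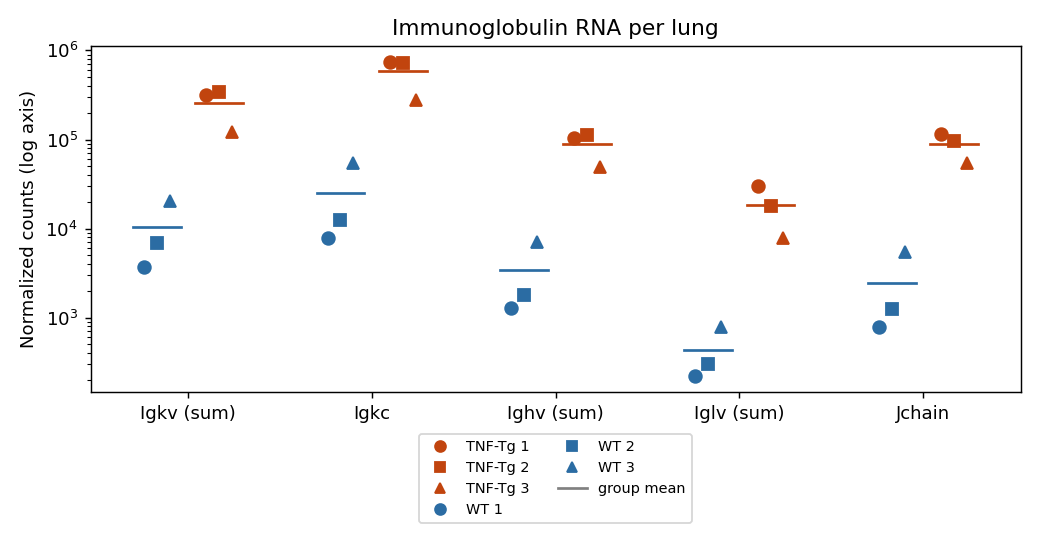
Normalized counts (log axis) of the summed Igkv genes, Igkc, the summed Ighv and Iglv genes and Jchain in each of the 6 lungs, with red for TNF-Tg, blue for WT, a marker shape per replicate and a line at the group mean. Every TNF-Tg lung lies above every WT lung for each of the 5 quantities, and WT replicate 3 is the highest WT lung for each.

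Markers of B and plasma cells, from lists set with earlier results of these data known, were measured beside the Igkv genes. Jchain, which joins IgA and IgM into polymers, had 88106, 92989 and 57684 counts in TNF-Tg lungs and 819, 1318 and 6068 in WT lungs (log2 fold change 5.16, SE 0.77, called higher). Over all genes tested, 24.0% were called higher and 23.4% lower. Of 14 B cell identity genes, 8 were called higher and none lower, with summed levels of 13659 to 14615 normalized counts in TNF-Tg lungs and 6554 to 11134 in WT lungs, and a median log2 fold change of 0.77. Of 14 plasma cell genes, 12 were called higher and none lower, with a median log2 fold change of 2.02. Their sums were 75474 to 149102 against 14334 to 20584, and without Jchain, the most abundant member, 21021 to 32931 against 13551 to 15192. The called genes included Mzb1, a chaperone of antibody assembly (2.90, SE 0.48), and Derl3, of endoplasmic reticulum quality control (3.14, SE 0.51). Sdc1, which lung epithelium also expresses (-0.02, SE 0.14), and Fkbp11 (0.34, SE 0.21) were not called. Over all 19199 genes tested the median was 0.03. Of 6 T cell genes, 5 were called higher, with sums of 10363 to 14932 against 1293 to 2372, and without Cd4, the most abundant member (log2 fold change 4.84, SE 0.33), of 2281 to 2618 against 1014 to 1815. Of 5 lung epithelium genes, which were abundant in every library, 4 were called lower, with sums of 496913 to 651807 against 1008060 to 1225483. The part of these cell types in the Igkv difference was not tested.

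Per Jchain count, a ratio computed after the values were seen, the Igkv sum was 2.75, 3.54 and 2.23 in TNF-Tg lungs and 4.73, 5.49 and 3.81 in WT lungs. The groups did not overlap, and the TNF-Tg lungs were lower (exact permutation p = 0.1, the smallest possible). Of 10 V(D)J recombination genes, 7 were tested, with 2 called higher, Dclre1c, which opens hairpin ends (log2 fold change 0.91, SE 0.15), and Xrcc6, of the Ku end-binding complex (0.36, SE 0.11), and none called lower. These 2 of 7 stand beside 24.0% of all genes tested called higher, a share near the background. The other 3 were near the limit of counting. Rag1 and Rag2, which cut DNA for V-J joining, had at most 8.60 and 2.07 normalized counts in any lung, and Dntt, which adds bases at joints, at most 6.61. They did not pass the filter on low counts.

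Genes were tested 1 by 1 with edgeR's quasi-likelihood test over all 19199 genes that passed the filter, at a Benjamini-Hochberg adjusted p under 0.05. Of the 160 Igkv genes, 103 passed the filter, 95 V genes and 8 pseudogenes. Called higher in TNF-Tg lungs were 96, beside 24.0% of all genes tested, and none was called lower, beside 23.4%. Of the 103, 59 were above the filter's minimum in every WT lung too, 57 of them called. The other 44 were under it in at least 1 WT lung and passed through their TNF-Tg counts, so the filter favoured genes that were higher in TNF-Tg lungs. The log2 fold changes ran from 1.79 to 8.74 with a median of 4.24. Without TNF-Tg replicate 1 the count of calls was 93 with a median of 3.77, and without WT replicate 1 it was 98 with a median of 3.93. Without WT replicate 3 it was 109 with a median of 5.49. A fit that allows for genes with outlying spread called 63, with the same median.

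Normalized counts were higher in every TNF-Tg lung than in every WT lung for 96 of the 103 genes tested, beside 30.5% of all genes tested. Without the filter this held for 119 of the 160 genes, beside 13.6% of all 49568 symbols. Of the remaining Igkv genes, 14 had no count in any lung and 27 overlapped. The mean was higher in TNF-Tg lungs for all 146 genes with a count. Of the 146, 19 had counts in TNF-Tg lungs and 0 in all 3 WT lungs, and no fold change is given for them. The 57 genes not tested, 52 of them pseudogenes, reached at most 77 counts in 1 lung and added up to between 107 and 554 counts per TNF-Tg lung and between 3 and 52 per WT lung.

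The 7 tested genes that were not called were Igkv1-135, Igkv6-13, Igkv14-130, Igkv5-37, Igkv8-18, Igkv4-51 and Igkv8-34. Igkv1-135 had 3419, 3635 and 749 normalized counts in TNF-Tg lungs and 46.8, 106 and 1001 in WT lungs, where WT replicate 3 lay above TNF-Tg replicate 3 (log2 fold change 2.75, SE 1.05, adjusted p = 0.060 from edgeR). Igkv6-13 had 1971, 752 and 906 in TNF-Tg lungs and 19.1, 29.7 and 578 in WT lungs (2.52, SE 1.08, adjusted p = 0.088). Without WT replicate 3 both were called, with log2 fold changes of 5.07 and 5.62 (adjusted p = 0.0021 and 2.8e-04), and so was Igkv14-130 (5.42, adjusted p = 0.022). limma-voom also called Igkv1-135 and Igkv6-13 (adjusted p = 0.023 and 0.012).

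Segments differed in how evenly the 3 TNF-Tg lungs used them. Igkv4-55 had 24038, 36063 and 661 normalized counts in TNF-Tg lungs and 121, 70.9 and 241 in WT lungs. TNF-Tg replicates 1 and 2 were thus far above replicate 3, which was still above every WT lung (log2 fold change 7.13, SE 1.34, adjusted p = 0.0031). Igkv3-4 showed the same division, with 15532, 22278 and 379 in TNF-Tg lungs and 92.7, 127 and 193 in WT lungs (6.53, SE 1.27, adjusted p = 0.0038). Igkv11-125, the largest log2 fold change of all Igkv genes, rested mostly on 1 lung. It had 268, 5880 and 101 counts in TNF-Tg lungs and 3, 0 and 13 in WT lungs (8.74, SE 1.91, adjusted p = 0.0065), and its highest TNF-Tg lung was 63.8 times the lowest after scaling. It was under the filter's minimum in at least 1 WT lung, so it passed through its TNF-Tg counts. It was not called by limma-voom (adjusted p = 0.21) or the robust fit (adjusted p = 0.058), and without TNF-Tg replicate 2 its log2 fold change was 5.47.

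Igkv1-110 and Igkv1-117 were the most even of the named segments between TNF-Tg lungs. Igkv1-110 had 14042, 24253 and 21201 normalized counts in TNF-Tg lungs, a range of 1.73-fold, and 113, 464 and 1494 in WT lungs (log2 fold change 4.84, SE 0.83, adjusted p = 0.0020). Igkv1-117 had 10898, 12105 and 8620 in TNF-Tg lungs, a range of 1.40-fold, and 153, 391 and 1203 in WT lungs (4.18, SE 0.67, adjusted p = 0.0014). For both segments the levels in WT lungs were spread more widely than in TNF-Tg lungs.

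The remaining high segments lay between these patterns. In TNF-Tg lungs Igkv12-41 had 23780, 4242 and 984 normalized counts and Igkv5-48 had 18510, 5654 and 716, both led by replicate 1. Igkv3-2 had 7902, 23796 and 3030 and Igkv10-96 had 8414, 23606 and 3681, both led by replicate 2. Igkv14-111 was low in replicate 1, with 3353, 12342 and 10811. Igkv6-15 was led by replicate 1, with 17860, 3900 and 6108. All 6 were called higher, with log2 fold changes of 4.48 to 5.99. With the robust fit, Igkv5-48 and Igkv12-41 were not called (adjusted p = 0.090 and 0.051), and Igkv5-48 was not called without WT replicate 2 (adjusted p = 0.057) or with a replicate block (adjusted p = 0.082). Igkv4-53, a less abundant segment with 961, 4344 and 3159 in TNF-Tg lungs and 37.3, 30.7 and 72.0 in WT lungs, had the smallest SE of the named segments (5.91, SE 0.62, adjusted p = 1.7e-04).

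The sizes of these changes depended on single lungs. For 16 of the 17 named segments, leaving out 1 lung moved the fold change by over 1.5 times, and Igkv4-53 was the exception. Without WT replicate 3 the log2 fold change was 6.09 for Igkv1-110, 5.27 for Igkv1-117, 7.67 for Igkv14-111, 5.91 for Igkv10-96, 6.91 for Igkv5-48, 5.57 for Igkv6-15, 6.61 for Igkv3-2, 6.62 for Igkv12-41 and 10.4 for Igkv11-125. Without TNF-Tg replicate 1 it was 4.06 for Igkv12-41, 3.70 for Igkv5-48, 3.56 for Igkv6-15 and 0.28 for Igkv14-130. Without TNF-Tg replicate 2 it was 6.41 for Igkv4-55, 5.85 for Igkv3-4, 4.89 for Igkv3-2, 3.60 for Igkv10-96 and 2.76 for Igkv5-39. Without WT replicate 2 it was 5.63 for Igkv8-21 and 4.75 for Igkv5-39, whose log2 fold changes over all lungs were 3.87 and 3.67.

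**Figure D2:**
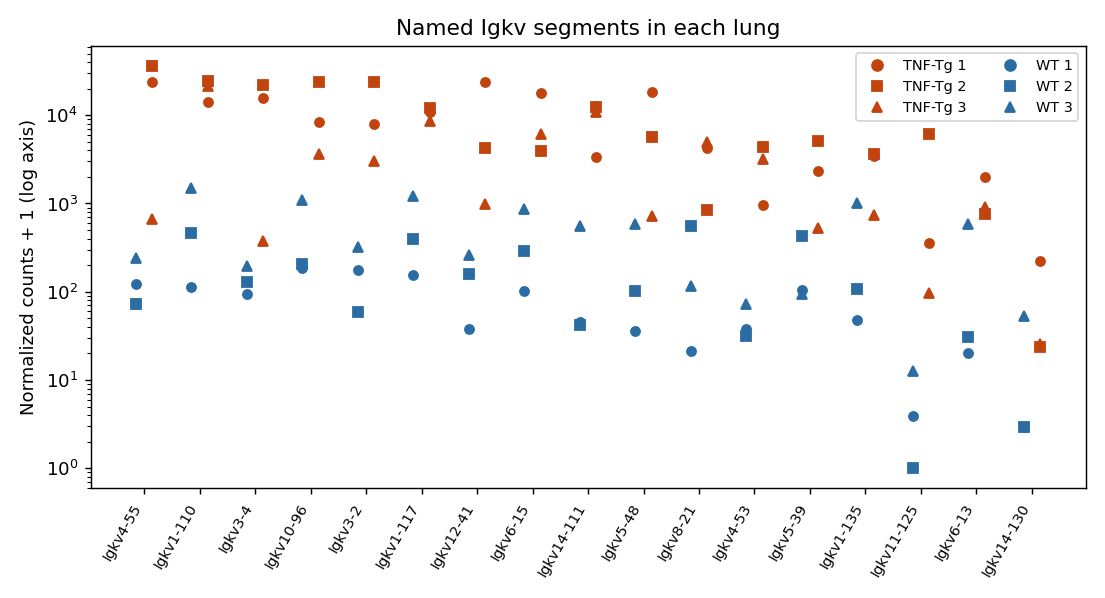
Normalized counts plus 1 (log axis) of the 17 named Igkv segments in each lung, ordered by their mean in TNF-Tg lungs, with red for TNF-Tg, blue for WT and a marker shape per replicate. Igkv4-55 spans 661 to 36063 among the TNF-Tg lungs while Igkv1-117 spans 8620 to 12105, and the groups overlap for Igkv1-135 and Igkv14-130.

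The spread between mice of 1 group had a higher median for Igkv genes than over all genes. Over the 103 tested, the median ratio of the highest to the lowest TNF-Tg lung was 4.31, beside 1.27 over all genes tested, and 46 of the 103 were over 5-fold. Among WT lungs the median ratio, over genes with a count in each of the 3, was 7.07 for tested Igkv genes and 1.29 for all genes tested, so the spread was wide in both groups. The median SE was 0.84 for Igkv genes and 0.17 for all genes. These are descriptions of the libraries, without a test.

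Different segments led in different lungs. Of the Igkv counts, Igkv4-55 held 7.52% in TNF-Tg replicate 1 (95% Wilson interval 7.42% to 7.63%) and 10.6% in replicate 2 (10.5% to 10.7%), and Igkv1-110 held 17.4% in replicate 3 (17.2% to 17.6%). In WT lungs Igkv10-96 led replicate 1 with 5.04% (4.39% to 5.77%), Igkv8-21 led replicate 2 with 8.07% (7.46% to 8.72%) and Igkv1-110 led replicate 3 with 7.26% (6.93% to 7.60%). Intervals cover counting error only, since reads are not independent molecules. Igkv8-21 held only 0.543% and 0.557% in WT replicates 1 and 3. Igkv4-55 held 0.544% in TNF-Tg replicate 3. Exon lengths of V genes ran from 338 to 501 bases with a median of 362, and per kb of exon the leading segment was the same in 5 lungs and was Igkv12-41 instead of Igkv4-55 in TNF-Tg replicate 1.

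Only Igkv1-110 and Igkv1-117 were among the 10 leading segments of all 6 lungs. Igkv10-96 and Igkv6-15 were among them in 5 lungs. The 6 lists of 10 held 27 different segments, of which 13 appeared in 1 lung only. Any 2 TNF-Tg lungs shared 4 or 5 of their 10 leading segments, any 2 WT lungs shared 5 or 6, and a TNF-Tg and a WT lung shared 3 to 7. The overlap of the shares, the sum over segments of the smaller of 2 lungs' shares, was 52.9% to 63.0% between TNF-Tg lungs, 65.9% to 70.4% between WT lungs and 56.0% to 68.3% between the groups. The most alike pair across the groups, at 68.3%, was TNF-Tg replicate 3 and WT replicate 3, which were both led by Igkv1-110.

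**Figure D3:**
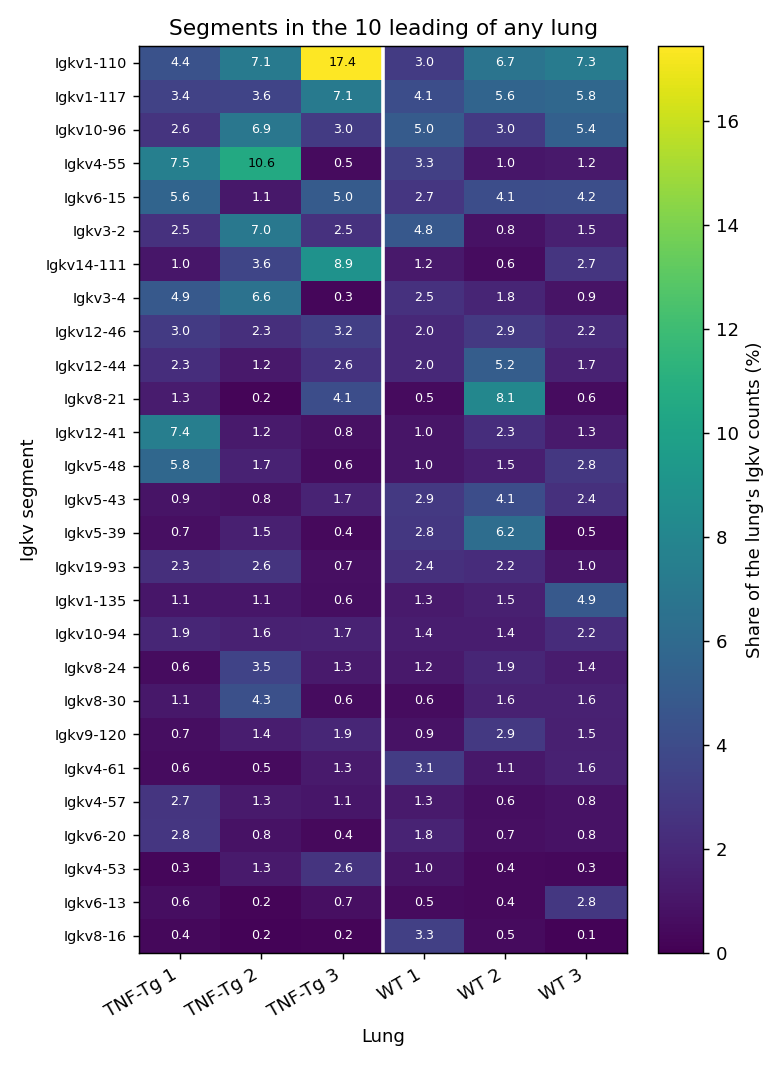
Share of each lung's Igkv counts (%, colour and printed value) for the 27 segments that were among the 10 leading in at least 1 lung, with lungs in columns, ordered by mean share. Igkv1-110 reaches 17.4% in TNF-Tg replicate 3, Igkv4-55 10.6% in TNF-Tg replicate 2, and Igkv8-21 8.1% in WT replicate 2.

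Dominance was compared over lungs. The leading segment held 11.9% ± 5.08 of Igkv counts in TNF-Tg lungs and 6.79% ± 1.57 in WT lungs (SD, n = 3), and the groups overlapped (exact permutation p = 0.2). The difference of 5.07 percentage points was 2.27 without TNF-Tg replicate 3, 7.23 without TNF-Tg replicate 1 and 4.19 without WT replicate 1. Per kb of exon, a scaling chosen after seeing the data, the lowest TNF-Tg share was 7.88% in replicate 1 and the highest WT share 7.84% in replicate 2, a gap narrower than the counting interval given above for WT replicate 2 (exact permutation p = 0.1). The 5 leading segments held 31.2%, 38.2% and 42.5% in TNF-Tg lungs and 20.5%, 31.8% and 27.5% in WT lungs (exact permutation p = 0.2). It took 11, 9 and 8 segments to reach 50% of the counts in TNF-Tg lungs and 17, 11 and 15 in WT lungs. The effective number of segments, the inverse of the sum of squared shares, was 30.7, 24.1 and 17.9 in TNF-Tg lungs and 45.2, 30.2 and 38.1 in WT lungs, means of 24.2 ± 6.40 and 37.8 ± 7.50 (SD, n = 3, exact permutation p = 0.2). The difference was -16.8 without TNF-Tg replicate 1 and -9.93 without WT replicate 1. TNF-Tg replicate 1 and WT replicate 2 are the lungs that overlapped in these measures. The 6 measures set for a test per lung had adjusted p-values of 0.4 to 0.8 by exact permutation.

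**Figure D4:**
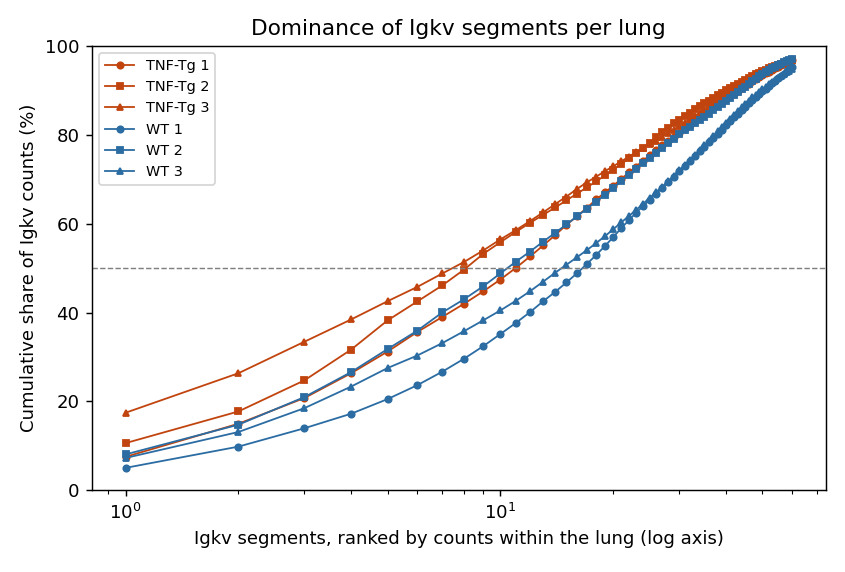
Cumulative share of Igkv counts (%) against the rank of the segment within its lung (log axis, first 60 ranks), 1 line per lung, with a dashed line at 50%. TNF-Tg replicates 2 and 3 cross 50% at 9 and 8 segments and WT replicates 1 and 3 at 17 and 15, while TNF-Tg replicate 1 and WT replicate 2 both cross at 11.

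More segments were seen in TNF-Tg lungs, but Igkv counts were also more numerous there. Total counts were lower in every TNF-Tg lung than in any WT lung. With at least 1 count there were 136, 143 and 134 segments in TNF-Tg lungs and 96, 107 and 124 in WT lungs (exact permutation p = 0.1, the smallest possible). Drawn down to 3870 Igkv counts, the total of WT replicate 1, the expected numbers were 96.3, 96.9 and 96.5 in TNF-Tg lungs and 96.0, 100.0 and 103 in WT lungs, a difference of -3.13 (exact permutation p = 0.4), and the groups overlapped. The difference was -1.45 without WT replicate 3, -4.98 without WT replicate 1 and -3.00 without TNF-Tg replicate 1. Drawn down further to 387 counts, the numbers were 65.3, 63.3 and 64.6 in TNF-Tg lungs and 71.3, 65.5 and 72.1 in WT lungs, a difference of -5.24. Each WT lung was above every TNF-Tg lung (exact permutation p = 0.1, the smallest possible). The gap was narrow, between 65.3 in TNF-Tg replicate 1 and 65.5 in WT replicate 2. The direction at both depths was the reverse of that without thinning. Of the 100 V genes, 97 had at least 3 counts in every TNF-Tg lung and 73 had at least 3 in every WT lung. Pseudogenes, which cannot give a chain, took 0.369%, 0.555% and 0.867% of Igkv counts in TNF-Tg lungs and 0.517%, 0.718% and 0.415% in WT lungs.

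**Figure D5:**
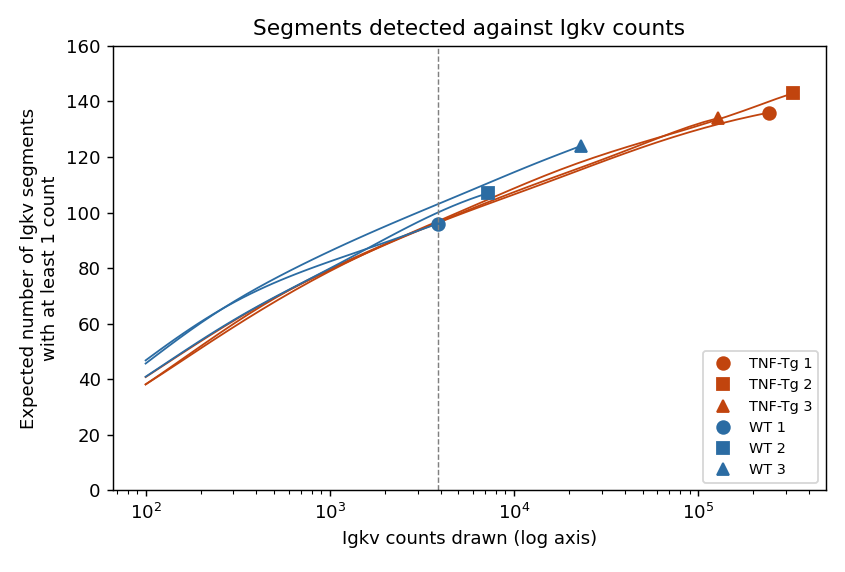
Expected number of Igkv segments with at least 1 count against the number of Igkv counts drawn (log axis), 1 curve per lung ending in a marker at its full count, with a dashed line at 3870 counts. At the dashed line all 6 curves lie between 96.0 and 103 segments.

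Family shares overlapped between the groups for 18 of the 20 families. Igkv4, with 33 segments the largest family, held 19.2%, 22.1% and 16.5% of Igkv counts in TNF-Tg lungs and 22.1%, 9.95% and 14.6% in WT lungs. Igkv1, with 13 segments, held 9.59%, 14.1% and 26.0% against 9.15%, 14.9% and 19.1%. Both ranges overlapped widely. Igkv17, with 3 segments, was the family with lower shares in every TNF-Tg lung, 1.53%, 0.899% and 1.39% against 1.68%, 4.41% and 3.22%. Igkv11, with 4 segments, had higher shares, 0.113%, 1.80% and 0.0815% against 0.0775%, 0% and 0.0605%, nearly all of it from Igkv11-125. The WT counts of Igkv11 were only 3, 0 and 14. For each of the 2 families an exact permutation test gave p = 0.1, the smallest possible, before any adjustment for 20 families. With no difference between the groups, a share of 0.1 of families would be expected to separate this way.

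Position in the locus was compared in 4 bins of 40 segments by distance from Igkj1. The nearest bin, 18.4 to 822 kb away, held 33.0%, 32.7% and 25.3% of Igkv counts in TNF-Tg lungs and 35.6%, 37.7% and 29.9% in WT lungs. The farthest bin, 2256 to 3166 kb away, held 18.4%, 22.5% and 41.5% against 18.8%, 25.8% and 31.4%, and replicate 3 was highest in both groups. In each of the 4 bins the groups overlapped (exact permutation p between 0.4 and 0.9).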

How the data were processed

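Lungs of 3 TNF-Tg and 3 WT mice were compared, 1 library per mouse, by genotype as given in the labels. The authors made stranded poly(A) libraries, sequenced single-end reads, cleaned them with Trimmomatic (version 0.36 in the submitters' processing notes), mapped them to mm10 (GRCm38.p5) with STAR version 2.5.2b and deposited raw counts per gene symbol. The notes name featureCounts, and its strand setting and version are not given in the sources used here. All 6 columns were used.

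From the deposited counts, edgeR (version 4.0.16, R version 4.3.3) was run with filterByExpr, TMM scaling and the quasi-likelihood test, genotype only, with Benjamini-Hochberg adjustment over all 19199 genes tested. DESeq2 (version 1.42.0), the study's tool, and limma-voom (limma version 3.58.1) were alternatives. The standard error (SE) was derived from the F statistic and the log2 fold change. Normalized counts were brought to the mean library size with the TMM factors. Per-lung values were compared by exact two-sided permutation tests in Python (version 3.11.15). Equal-depth numbers are hypergeometric expectations. Shared sequence was measured in 100-base windows of GENCODE M21 transcripts. The fits and measures were tested on simulated data.

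Segments named were the 3 with most counts in each lung, the 10 highest in TNF-Tg and 5 highest in WT lungs, the 5 largest rises with at least 10 counts in every lung, the 3 highest not called, and the 3 most uneven between TNF-Tg lungs with a mean of at least 100 normalized counts. Other segments are named where a count was 7 or fewer or a sequence was compared, chosen after values were seen. The members and lists were chosen with earlier results of these data known. Replicates are separate mice. Total counts of 25396923 to 32529408 per lung limit detection, and 3 counts equal 2.67 to 3.96 normalized counts.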

Additional observations from a re-analysis of the deposited data

How the results depend on the processing

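The 96 Igkv calls of 103 genes were 91 to 98 of 103 with limma-voom or other scalings. They were 106 of 146 with DESeq2 and 117 of 146 with no filter on low counts, so a lower share was called. With at least 10 counts in every lung they were 58 of 60, and with the robust fit 63 of 103. The cause of the lower number with the robust fit was not tested. Over all genes, 9096 of 19199 were called in the main fit, 9134 of 34744 with DESeq2 and 9070 of 34744 with no filter. No setting called an Igkv gene lower. In a replicate block fit on the mouse number, 90 genes were called, the median log2 fold change was 4.34 and the difference of the summed level was 4.87 (p = 0.25 by exact sign permutation). Deviations from the group mean in same-numbered mice had correlations of -0.15, -0.0043 and -0.24 over all genes tested. Over the Igkv genes tested they were 0.059, 0.0053 and 0.050. With 3 mice a group, these values cannot decide whether the numbers pair the mice. Leaving out each lung gave 92 to 109 calls, medians of 3.77 to 5.49, highest without WT replicate 3, and differences of 4.31 to 5.54 in the summed level, 2.27 to 7.23 percentage points in the leading share, lowest without TNF-Tg replicate 3, -17.4 to -9.93 in the effective number and -4.98 to -1.45 in the segments detected at equal depth. The log2 ratio of Igkv to Igkc differed by -0.20 to 0.072, with its sign turned without WT replicate 2, and that of Igkv to Ighv by -0.23 to -0.02.

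Without thinning, the difference in segments detected turned from -3.13 to 28.7 with at least 1 count, 30.7 with at least 3 and 36.3 with at least 10. Unthinned TNF-Tg lungs had more Igkv counts than WT lungs, though fewer total counts. Thinned to 387 Igkv counts, the difference was -5.24 and the groups did not overlap, by a narrow gap (exact permutation p = 0.1). Counts per kb of exon, chosen after seeing the data, gave differences of 4.95 percentage points in the leading share and -14.1 in the effective number, and the groups then did not overlap (exact permutation p = 0.1 for each), by a narrow gap in the leading share. Among the 15 named genes that were called, Igkc included, 214 comparisons with a setting kept the call and 10 lost it. Igkv5-48 and Igkv8-21 lost it under 3 settings each, Igkv11-125 under 2, and Igkv12-41 and Igkv5-39 under the robust fit only. For the 3 not called, 35 comparisons stayed so and 8 gained a call, Igkv1-135 under 4 settings, Igkv6-13 under 3 and Igkv14-130 under 1. None of these changed direction. With 3 lungs a group, no per-lung test could pass 0.05, and these p-values say nothing about stability.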

Other observations

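Lambda and surrogate light chain genes were counted beside the kappa segments. Of 9 lambda genes listed, 6 were tested and all 6 were called higher by edgeR, beside 24.0% of all genes tested, with sums of 20381 to 78042 normalized counts in TNF-Tg lungs and 749 to 2457 in WT lungs. Lambda V genes took 8.54%, 5.02% and 6.06% of light chain V counts in TNF-Tg lungs and 5.61%, 4.15% and 3.71% in WT lungs, groups that overlapped (exact permutation p = 0.2). Vpreb3, a surrogate light chain relative, was called lower (log2 fold change -1.53, standard error 0.26), with 392, 270 and 301 normalized counts in TNF-Tg lungs and 717, 734 and 1326 in WT lungs. Vpreb1, Vpreb2 and Igll1, which pair with the heavy chain in early B cells, had at most 10.5, 2.64 and 10.3 normalized counts in any lung.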
